A study of Mus musculus with 16 samples.

Results

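The immediate-early genes described here are Fos, Fosb, Jun, Junb, Egr1, Egr2, Egr3, Nr4a1, Ier2 and Dusp1, found by gene symbol in tables that list 55291 symbols. All 10 passed the filter on low counts, as did 18745 symbols in all. The study measured total RNA, depleted of ribosomal RNA, from spleens of male C57BL/6 mice, either wild type (WT) or lacking the RNA-activated kinase PKR (KO). Imiquimod, a Toll-like receptor 7 agonist that causes a psoriasis-like inflammation, was put on the shaved back as 62.5 mg of a 5% cream each day. Spleens were taken on days 0, 1, 2 and 5 in each genotype, which gives 8 groups (WT_D0 to WT_D5 and KO_D0 to KO_D5) of 2 libraries, each of 2 pooled spleens. The day 0 mice had no imiquimod, and no group treated with a cream without the drug was analysed here, so drug, cream, shaving and handling cannot be told apart in a change from day 0. Each spleen was pressed through a 70-µm mesh and its red cells were lysed before the RNA was extracted.

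Immediate-early genes are transcribed within minutes of a stimulus, without new protein synthesis, and their mRNAs are short-lived. Kinase cascades reach them through factors already on their promoters, such as serum response factor with its ternary complex partners and CREB. In the spleen they are known as readouts of antigen receptor, Toll-like receptor and cytokine signalling in lymphocytes and myeloid cells. They are also known to be switched on by tissue dissociation, so in a minced spleen they read the handling of the cells as well as the state of the animal.

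Library totals ran from 35026754 to 67333830 fragments, and the members' counts from 108 (Egr2) to 13398 (Fos) per library. Counting error alone was therefore 2.14% to 9.62% at the lowest count of each gene. Eif2ak2, which encodes PKR, checks the labels: it was lower in both KO than in both WT libraries on days 0, 1 and 5. On day 2 the WT libraries had a level of 32.8 and 42.5 CPM, and the KO libraries had 47.5 (replicate 1) and 21.5 (replicate 2). The library labelled KO_D2 replicate 1 thus goes against its label on this gene, and the members' changes on KO day 2 are given with and without it. The deleted part of Eif2ak2 is not given in the sources used here, and fragments were counted over the whole transcript. All 8 B cell markers and 8 of 9 T cell markers were at 1 FPKM or more in every library, as in spleen. FPKM is the authors' fragment count scaled to transcript length and library total. CPM is the count scaled to the library total and by the trimmed mean of M-values (TMM), and compares 1 gene between libraries.

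Per transcript length, Fos was the member with the highest median level (48.7 FPKM over the 16 libraries), followed by Junb (39.2), Jun (30.4) and Dusp1 (24.0 FPKM). Ier2 (15.9), Nr4a1 (11.2) and Fosb (8.85 FPKM) came next. Egr1, Egr2 and Egr3 had medians of 3.92, 2.36 and 2.09 FPKM. The widest range over libraries was that of Fosb, 18.5-fold in CPM, and the narrowest that of Egr1, 2.42-fold. For 7 of the members the lowest of the 16 CPM values was that of the library labelled KO_D2 replicate 1.

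**Figure D1:**
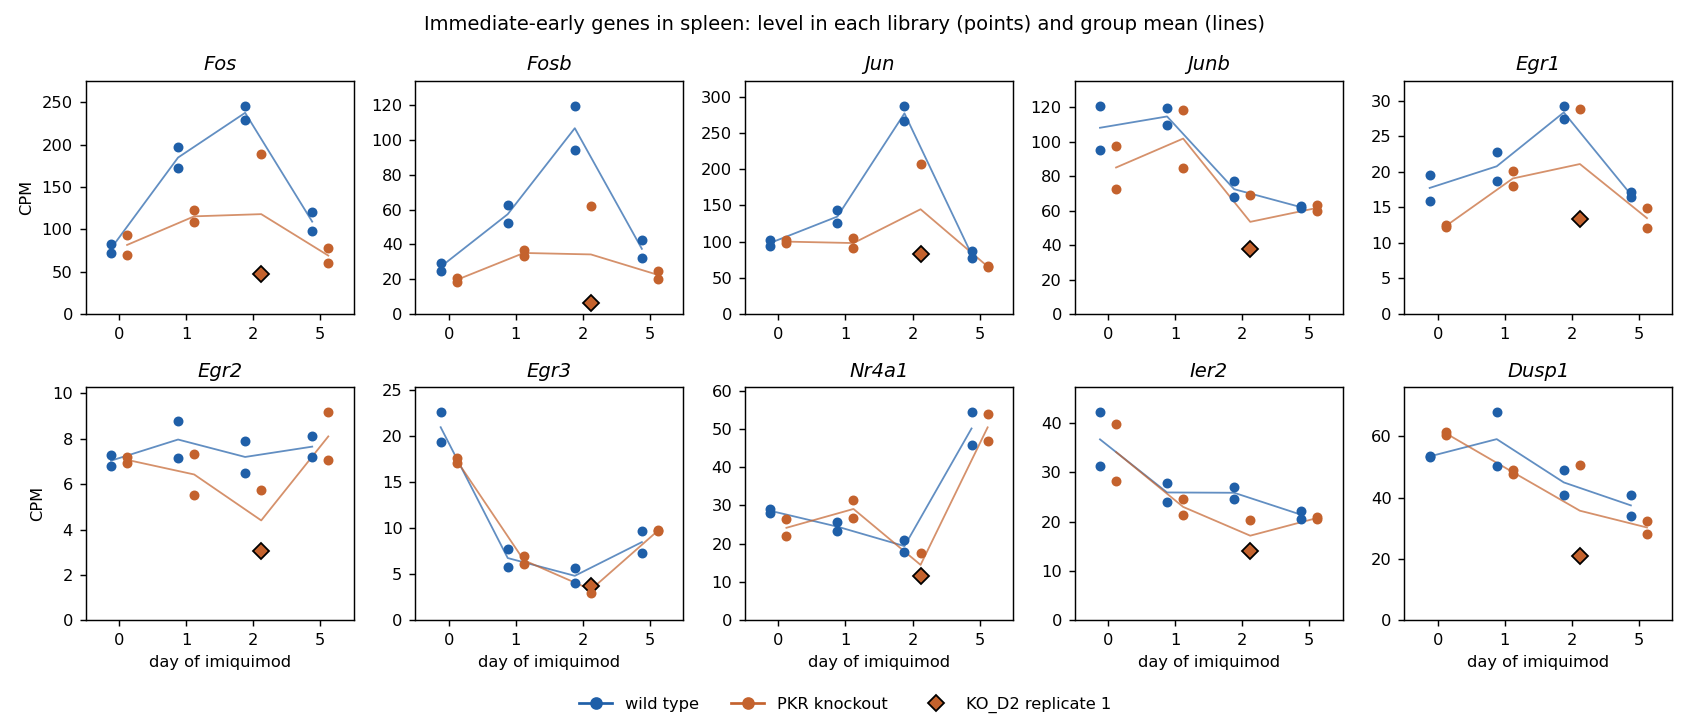
Level of each immediate-early gene in CPM (y axis, linear from 0) by day (x axis) in wild type (blue) and PKR knockout (orange). Points are libraries, lines join the means of 2 libraries, and the black-edged diamond is the library labelled KO_D2 replicate 1. Fos, Fosb and Jun peak on day 2 in WT at 230 to 246, 94.1 to 120 and 267 to 287 CPM, while Egr3 drops on day 1 in both genotypes; in FPKM the Fos libraries of WT days 1 and 2 overlap.

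Fos, Fosb, Jun and Junb encode subunits of the transcription factor AP-1, which binds DNA as a pair of FOS and JUN family proteins or of JUN proteins. In WT spleen, Fos and Jun rose on day 2, and Fosb had its 2 highest libraries on that day. Fos stood at 72.3 and 82.3 CPM on day 0, 197 and 172 at day 1, 246 and 230 at day 2, and 97.9 and 120 at day 5. Both WT libraries of each treated day were above both of day 0. The change of Fos on day 2 was 1.62 ± 0.51 on the log2 scale (SE; adjusted p = 0.0307), and passed in 21 of 26 alternative settings. Adjusted p is from edgeR's quasi-likelihood test with Benjamini-Hochberg adjustment over all genes, throughout. On day 1 the change of Fos was 1.26 ± 0.51 (adjusted p = 0.0746), which did not pass the threshold of 0.05. The SE is shared by all groups, and without the library labelled KO_D2 replicate 1 it was 0.15 and the day 1 change passed (1.26, adjusted p = 2.75e-06). Leaving out replicate 2 of that group in its place also takes this pair out of the shared spread, and gave 1.28 (adjusted p = 1.82e-06).

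Fosb stood at 24.9 and 29.4 CPM on day 0 in WT, 52.3 and 62.6 at day 1, 120 and 94.1 at day 2, and 32.1 and 42.8 at day 5. The order WT_D2, WT_D1, WT_D5, WT_D0 had no overlap between libraries. Its day 2 change was 1.98 ± 0.75 on the log2 scale (adjusted p = 0.0626 with all libraries). Without the library labelled KO_D2 replicate 1 it was 1.98 ± 0.16 (adjusted p = 1.08e-08), and the day 1 change was 1.09 ± 0.16 (adjusted p = 2.12e-05). Fosb and Fos were also past the threshold on WT day 5 without that library, at 0.46 and 0.50 (adjusted p = 0.0241 and 0.0140).

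Jun stood at 102 and 94.2 CPM on WT day 0, 126 and 143 at day 1, 287 and 267 at day 2, and 77.6 and 87.0 at day 5. Both day 2 libraries were above every other library of the study. The rise on day 2 was 2.82-fold, with an SE of 0.31 on the log2 scale (adjusted p = 0.0028), and passed in 26 of 26 alternative settings. Junb took another course. It stood at 121 and 95.5 CPM on WT day 0, 120 and 110 at day 1, 76.9 and 68.0 at day 2, and 62.7 and 61.3 at day 5. Junb fell on day 5 by 0.80 on the log2 scale (adjusted p = 0.0228; 19 of 26 alternatives), and its day 2 value of -0.58 did not pass with all libraries (adjusted p = 0.0773).

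In KO spleen Fos had 69.9 and 93.2 CPM on day 0, 108 and 122 at day 1, 46.7 and 189 at day 2, and 60.3 and 77.6 at day 5. The 2 libraries of day 2 were the lowest and the highest of the KO libraries. Fosb likewise had 18.7 and 20.6 CPM on day 0, 37.0 and 33.3 at day 1, 6.49 and 62.0 at day 2, and 20.3 and 24.6 at day 5. Jun had 102 and 98.4, then 105 and 91.2, then 82.4 and 207, then 65.3 and 65.9 CPM. Junb had 97.8 and 72.3, then 119 and 85.0, then 37.9 and 69.1, then 60.1 and 63.2 CPM over the same days. With both day 2 libraries, Fos, Fosb and Jun did not pass against day 0 (log2 change 0.53, 0.81 and 0.53, adjusted p = 0.417, 0.408 and 0.179). Without replicate 1 each passed, at 1.21, 1.66 and 1.05 (adjusted p = 2.66e-05, 1.12e-06 and 5.25e-06). Junb fell by 0.67 at KO day 2 with all libraries (adjusted p = 0.0421; 7 of 26 alternatives), and without replicate 1 was at -0.30 (adjusted p = 0.249). Without replicate 2 in its place, the values of Fos and Fosb turned to -0.74 and -1.54 (adjusted p = 0.00381 and 1.43e-05), and Jun was at -0.22 (adjusted p = 0.229). The direction on KO day 2 thus depended on which library was used. In these fits the remaining day 2 library is assumed to vary as the other groups do. On KO day 1, Fos and Fosb passed without that library (0.50 and 0.84, adjusted p = 0.0122 and 0.000313) and not with it.

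The 250 bases upstream of Fos, Fosb and Jun are shown because these 3 members had their highest CPM in the WT day 2 libraries. In deposited FPKM, without TMM, this held for Fosb and Jun, while Fos had 113 and 97.7 at WT day 1 and 112 and 103 at day 2, which overlap. They are RefSeq sequence of GRCm38.p6 (the mm10 build), on each gene's strand, and the capitals mark matches to TGACG or TGACNTCA (forms of the CREB and AP-1 site) and TATAA.
Fos, chr12:85473640-85473889, plus strand: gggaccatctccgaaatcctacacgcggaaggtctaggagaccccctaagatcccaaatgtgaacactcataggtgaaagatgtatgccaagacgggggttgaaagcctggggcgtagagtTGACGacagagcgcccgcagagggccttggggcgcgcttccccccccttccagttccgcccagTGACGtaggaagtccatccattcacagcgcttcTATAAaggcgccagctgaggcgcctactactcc
Fosb, chr7:19310046-19310295, minus strand: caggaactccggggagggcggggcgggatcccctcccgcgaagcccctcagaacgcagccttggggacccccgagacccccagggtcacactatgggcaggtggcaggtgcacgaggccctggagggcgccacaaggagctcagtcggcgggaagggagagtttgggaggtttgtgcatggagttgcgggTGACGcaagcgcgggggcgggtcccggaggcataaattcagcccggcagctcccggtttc
Jun, chr4:95052223-95052472, minus strand: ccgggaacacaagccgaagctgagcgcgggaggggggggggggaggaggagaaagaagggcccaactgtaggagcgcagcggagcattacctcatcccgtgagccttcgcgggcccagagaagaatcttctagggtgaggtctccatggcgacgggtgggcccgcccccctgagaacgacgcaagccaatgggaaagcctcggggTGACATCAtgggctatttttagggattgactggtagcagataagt
Both strands were searched, a TGACNTCA match may contain a TGACG match, and positions count from the start of transcription. Fos held TGACG at -129 and -66 and TATAA at -33. Fosb held TGACG at -60, and Jun held TGACNTCA at -45. Of 32851 RefSeq windows of this length, 17.8% held TGACG, 7.49% held TGACNTCA and 22.8% held TATAA. Windows were found for 7 of the 10 members, which leaves Egr1, Egr3 and Ier2 without one. Of those 7, Junb held TGACG at -106, Nr4a1 held 4 matches to TGACG, and Egr2 and Dusp1 held it too. GCGTGGGCG, the EGR site, and TGANTCA, the AP-1 site, were found in 0 of the members' windows, against 0.536% and 6.75% of all windows.

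The 3 EGR genes encode zinc-finger factors of the same family, which bind GC-rich sites, and they moved apart from each other. Egr1 rose on day 2, Egr2 passed on no day in WT, and Egr3 fell throughout. Egr1 had 15.9 and 19.6 CPM on WT day 0, 22.9 and 18.7 at day 1, 27.5 and 29.3 at day 2, and 17.2 and 16.4 at day 5. In KO it had 12.5 and 12.2, then 20.2 and 18.0, then 13.4 and 28.8, then 12.1 and 14.9 CPM. The WT day 2 libraries were above all other WT libraries, and both KO day 2 libraries were above those of KO day 0. The day 2 rise was 0.68 ± 0.26 on the log2 scale in WT (adjusted p = 0.0496) and 0.77 ± 0.26 in KO (adjusted p = 0.0284). The WT call lay near the threshold and passed in 12 of 26 alternatives, with adjusted p from 5.51e-05 to 0.214. The KO call passed in 22 of 26. It was at 1.22 when the library labelled KO_D2 replicate 1 was left out (adjusted p = 8.58e-06) and at 0.17 without replicate 2 (adjusted p = 0.453).

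Egr3, which limits and shapes the response to antigen receptor signals in lymphocytes, lies on the plus strand of chromosome 14 (mm10 70077314 to 70082550) and had 19.4 and 22.6 CPM on WT day 0. It had 5.84 and 7.70 at day 1, 5.64 and 4.04 at day 2, and 9.72 and 7.27 at day 5. In KO it had 17.6 and 17.1, then 6.94 and 6.13, then 3.69 and 2.98, then 9.82 and 9.67 CPM. Every treated library was below all 4 day 0 libraries. The log2 changes in WT on days 1, 2 and 5 were -1.63 ± 0.18, -2.13 ± 0.19 and -1.30 ± 0.18 (adjusted p = 1.48e-06, 5.62e-08 and 1.87e-05). In KO the changes were -1.41, -2.38 and -0.83 (adjusted p = 8.51e-06, 1.83e-08 and 0.00112), and that of day 2 was -2.54 when the library labelled KO_D2 replicate 1 was left out (adjusted p = 1.76e-07). Each of these 6 calls held in 26 of 26 alternatives. Egr3 was also the 1 member that was not lower in the library labelled KO_D2 replicate 1 than in replicate 2. The summed level of the 9 T cell markers was also lower on WT day 2, at 48.9 to 52.3 FPKM against 214 to 276 on day 0. On day 1 that sum was 197 to 221 FPKM in WT and 128 to 137 FPKM in KO. These sums are without TMM, while the CPM of Egr3 are with it. The TMM factors were 1.20 and 1.19 on WT day 1, against 1.02 and 0.94 on WT day 0. TMM would therefore lower the WT day 1 sums against those of day 0. At day 5 the T cell sum was 101 to 106 FPKM in WT and 94.8 to 120 FPKM in KO. In KO it went from 241 to 257 FPKM on day 0 to 32.6 to 58.0 at day 2. The part of T cell content in the fall of Egr3 was not tested, and in bulk RNA fewer cells of a type and less RNA per cell cannot be told apart.

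Egr2 ranged from 6.48 to 8.76 CPM over the 8 WT libraries, with overlap between all WT groups, and none of its WT changes passed. In KO it had 6.94 and 7.20 CPM on day 0, 7.32 and 5.53 at day 1, 3.05 and 5.76 at day 2, and 7.04 and 9.16 at day 5. It fell by 0.68 on the log2 scale on KO day 2 (adjusted p = 0.0244), which held in 14 of 26 alternatives. When the library labelled KO_D2 replicate 1 was left out the value was -0.30 (adjusted p = 0.315). The short windows around the Egr2 CArG boxes, the site of serum response factor, are shown because this site was rare among promoters and was found in no other member's window. Egr1, Egr3 and Ier2 had no window, and sites beyond the 250 bases were not searched in any member.
Egr2, chr10:67537484-67537513, plus strand: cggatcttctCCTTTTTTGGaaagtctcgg
Egr2, chr10:67537787-67537816, plus strand: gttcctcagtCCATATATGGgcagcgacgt
The capitals mark the box, and each lay at -72 from an annotated Egr2 start. Of the 32851 windows, 1.47% held a CArG box.

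Nr4a1, also called Nur77, encodes an orphan nuclear receptor and is widely used as a reporter of antigen receptor signalling. It lies on the plus strand of chromosome 15 (mm10 101266846 to 101274795). It fell on day 2 and rose on day 5 in both genotypes. In WT it had 28.0 and 29.2 CPM on day 0, 25.5 and 23.4 at day 1, 20.9 and 17.9 at day 2, and 54.3 and 45.9 at day 5. In KO it had 26.4 and 21.9, then 26.7 and 31.4, then 11.5 and 17.5, then 46.9 and 53.9 CPM. The day 5 libraries of both genotypes were above all other libraries, and those of day 2 were below them. The day 2 changes were -0.56 ± 0.17 in WT and -0.74 ± 0.17 in KO (adjusted p = 0.00996 and 0.00143). With the library labelled KO_D2 replicate 1 left out, the KO value was -0.47 (adjusted p = 0.033). The day 5 changes were 0.81 ± 0.16 and 1.06 ± 0.17 (adjusted p = 0.000792 and 5.03e-05), and both held in 26 of 26 alternatives. On day 5 the summed level of the 10 erythroid precursor markers was 5816 to 8531 FPKM in WT, against 394 to 889 at day 0, and 11770 to 16093 in KO, against 746 to 1181. The sums of red pulp macrophage, monocyte, plasma cell, platelet, and mast cell and basophil markers were also above day 0 in both genotypes. Those of B, T and natural killer cell markers were below. Those of neutrophil, conventional dendritic cell, and endothelial and stromal cell markers overlapped day 0 in WT. The part of these cell types in the rise of Nr4a1 was not tested.

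Ier2, a small nuclear protein gene of the immediate-early response, fell on every treated day in both genotypes. In WT it had 42.1 and 31.2 CPM on day 0, 27.9 and 23.9 at day 1, 27.1 and 24.6 at day 2, and 22.2 and 20.6 at day 5. In KO it had 39.9 and 28.3, then 24.7 and 21.3, then 14.0 and 20.3, then 20.6 and 20.9 CPM. All 12 treated libraries were below all 4 of day 0, and the day 0 replicates were themselves among the more unequal pairs (0.43 and 0.49 on the log2 scale). The changes on days 1, 2 and 5 were -0.50, -0.50 and -0.78 in WT (adjusted p = 0.0372, 0.0365 and 0.00363). They were -0.57, -0.99 and -0.72 in KO (adjusted p = 0.0217, 0.000394 and 0.00533), and that of day 2 was -0.75 when the library labelled KO_D2 replicate 1 was left out (adjusted p = 0.00625). The WT calls of days 1 and 2 passed in 12 and 14 of 26 alternatives.

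Dusp1 encodes a nuclear phosphatase that switches off MAP kinases, and is also induced by glucocorticoids. In WT it had 53.5 and 53.3 CPM on day 0, 67.7 and 50.3 at day 1, 40.9 and 49.0 at day 2, and 34.1 and 40.8 at day 5. In KO it had 60.4 and 61.5, then 47.6 and 48.9, then 21.0 and 50.5, then 28.2 and 32.3 CPM. Every KO library of a treated day was below both of day 0. With all libraries Dusp1 fell on KO day 5 only, by 1.01 on the log2 scale (adjusted p = 0.0248), a call that held in 15 of 26 alternatives. With the library labelled KO_D2 replicate 1 left out, the WT day 5 value of -0.51 passed as well (adjusted p = 0.00582). Its KO day 2 value was -0.77 with that library and -0.27 without it (adjusted p = 0.0661 and 0.212). The window around its TGACGTCA, the full CREB site, is shown as the only complete match among the members' windows.
Dusp1, chr17:26508598-26508625, minus strand: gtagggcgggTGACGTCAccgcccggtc
The capitals mark the site, which began at -143.

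Counted over the members, the day comparisons gave no shared direction. In WT, 2 of 10 members were called on day 1 (0 higher, 2 lower), where 44.6% of all genes tested were called (21.9% higher and 22.7% lower). On day 2 the count was 6 (3 higher, 3 lower) against 45.2% of genes (22.3% and 23.0%). On day 5 it was 4 (1 higher, 3 lower) against 39.5% of genes (21.5% and 18.0%). In KO, day 1 gave 2 members (0 higher, 2 lower) against 41.6% of genes (20.7% and 20.9%). Day 2 gave 6 (1 higher, 5 lower) against 49.6% of genes (24.0% and 25.6%), and day 5 gave 4 (1 higher, 3 lower) against 44.9% of genes (22.8% and 22.1%). The 3 comparisons of each genotype share their day 0 libraries.

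Leaving out the library labelled KO_D2 replicate 1 raised the members' counts. In WT they became 3 higher and 2 lower on day 1 (22.3% and 22.9% of genes), and 4 and 4 at day 2 (22.3% and 23.1%). On WT day 5 they became 3 and 4 (21.6% and 18.5%). In KO they became 3 and 2 at day 1 (20.9% and 21.1%), 4 and 3 at day 2 (19.5% and 19.9%), and 1 and 5 at day 5 (23.0% and 22.2%). Fos, Fosb and Egr1 were higher on day 2 in both genotypes in that fit, and Jun joined them. The WT log2 changes themselves moved by less than 0.01, so in WT the calls changed through the SE alone.

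**Figure D2:**
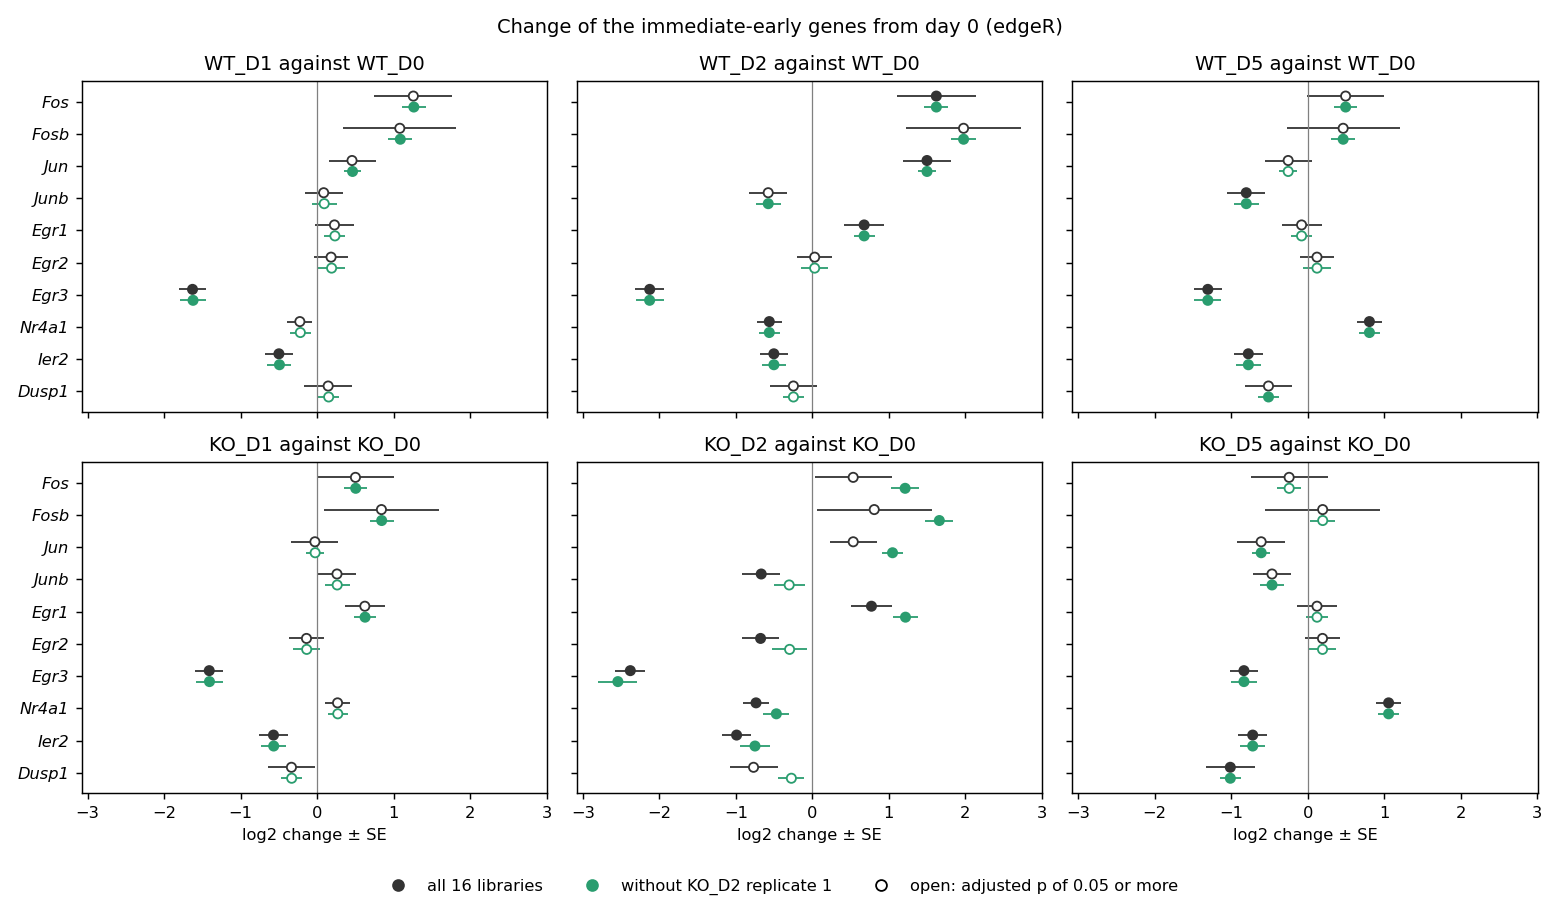
Log2 change of each immediate-early gene from day 0 of its genotype (x axis, with SE bars) with all 16 libraries (dark) and without the library labelled KO_D2 replicate 1 (green); filled points passed adjusted p under 0.05 in edgeR. The WT values coincide while their SE shrinks (Fosb on day 2 from 0.75 to 0.16), and Egr3 is filled in every panel.

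Between genotypes, no member was called on any day with all libraries. The same held by DESeq2 and by limma, and 0, 0, 5 and 0 members had an unadjusted edgeR p under 0.05 on days 0, 1, 2 and 5. Of all genes, 0.0213%, 0.187%, 0.0% and 0.00533% were called on those days. On day 2 all 10 members had a negative KO minus WT value, and 7 had both KO libraries below both WT libraries, against 17.7% of all genes. On days 0, 1 and 5 that number was 4, 4 and 5 (14.3%, 26.1% and 19.0% of genes). The day 2 values were -1.64 ± 0.75 for Fosb, -1.01 ± 0.51 for Fos and -0.94 ± 0.31 for Jun on the log2 scale (adjusted p = 0.991, 0.991 and 0.887). They depended on which KO library was used. Leaving out the library labelled KO_D2 replicate 1, they were -0.79, -0.33 and -0.43 (adjusted p = 0.278, 0.632 and 0.423) and no member was called. Without replicate 2 they were -4.04, -2.35 and -1.75, and 6 members were called lower (0.195% of genes).

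Fos and Fosb were also lower in KO on day 1. Their KO libraries (108 and 122 CPM for Fos, 37.0 and 33.3 for Fosb) were below both WT libraries (197 and 172, 52.3 and 62.6). The differences were -0.68 ± 0.50 and -0.71 ± 0.73 with all libraries (adjusted p = 0.746 and 0.836). Without the library labelled KO_D2 replicate 1 they were -0.69 ± 0.15 and -0.72 ± 0.16 and lay just past the threshold (adjusted p = 0.0498 and 0.0476), the 2 members called lower beside 0.138% of genes. On day 5 Fos had 60.3 and 77.6 CPM in KO against 97.9 and 120 in WT, which did not pass in either fit (adjusted p = 0.945 and 0.134). Over the 4 days, the mean KO minus WT value of Fosb was -0.68 ± 0.08 without that library (adjusted p = 0.000752), the 1 member called (0.0614% of genes lower). With all libraries it was -0.89 ± 0.37 (adjusted p = 0.868), 0.0267% of genes were called, and 4 members had an unadjusted p under 0.05. Without replicate 2 in its place, 5 members were called lower (0.113% of genes).

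The change with days itself did not differ between genotypes past the threshold for any member with all libraries. Of all genes, 0.171%, 0.0% and 0.0% were called for days 1, 2 and 5, and 1, 1 and 0 members had an unadjusted p under 0.05. The difference of the day 2 changes was -1.17 ± 1.05 for Fosb, -1.09 ± 0.71 for Fos and -0.96 ± 0.44 for Jun. Without the library labelled KO_D2 replicate 1 these were -0.32 ± 0.25, -0.41 ± 0.24 and -0.45 ± 0.18. Without replicate 2, 4 members were called lower (0.0616% of genes).

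The spread between the 2 libraries of a group was larger for the members on KO day 2 than in the other 7 groups. On KO day 2 the median size of the log2 ratio was 1.01 for the members and 0.27 for all genes. In the other 7 groups it was 0.097 to 0.24 for the members and 0.16 to 0.26 for all genes. The members' median was above that of all genes on WT days 1, 2 and 5 and KO day 1. In those 7 groups no member differed 2-fold between replicates, and the largest difference was 0.49 on the log2 scale (Ier2 at KO day 0). On KO day 2, 9 of 10 members were lower in replicate 1, 5 of them by 2-fold or more. On KO day 5, too, 9 of 10 were lower in replicate 1, with a median of -0.20 on the log2 scale and none by 2-fold. On KO day 2 Fosb was 9.56-fold lower, Fos 4.05-fold, Jun 2.51-fold, Dusp1 2.40-fold and Egr1 2.15-fold. Of all genes, 7.79% were 2-fold or more lower in that library, and 11.0% differed 2-fold in either direction, against 5.84% to 8.46% in the other groups. The members' median was -1.01 on the log2 scale, against 0.033 for all genes.

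**Figure D3:**
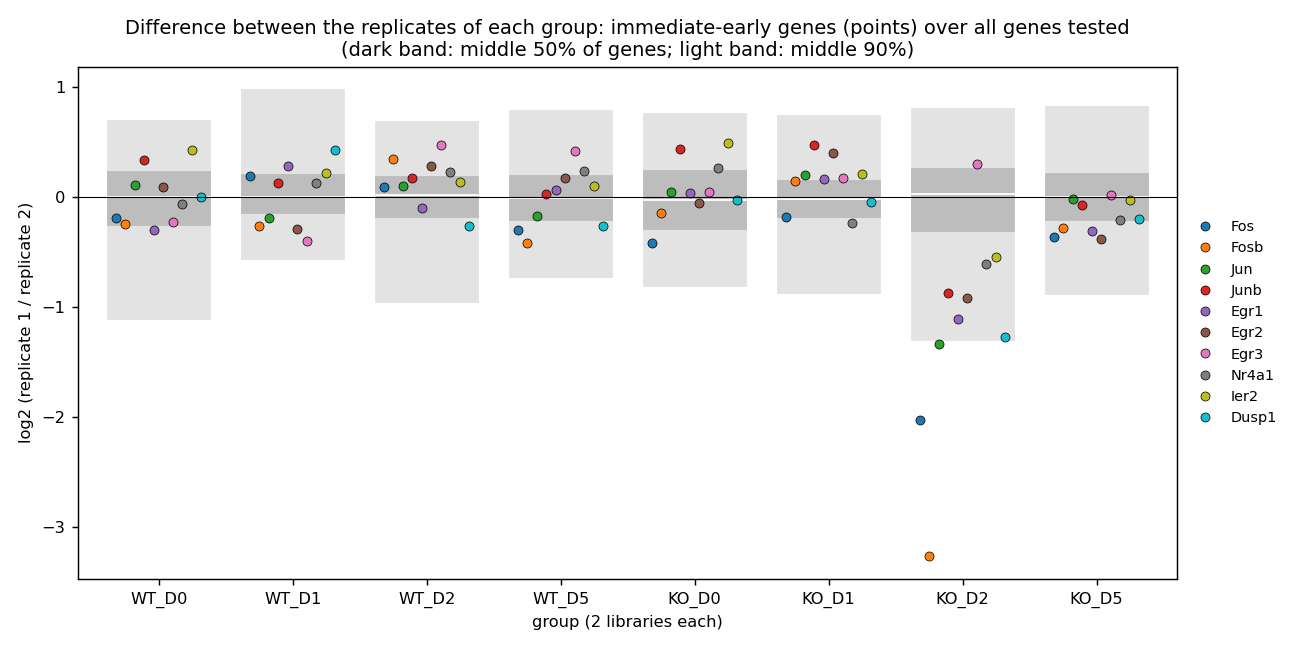
Log2 ratio of replicate 1 to replicate 2 (y axis) in each group (x axis) for the 10 immediate-early genes (points) over all genes tested (dark band, middle 50%; light band, middle 90%). In 7 groups the points lie within 0.5 of 0, and on KO day 2 the points of all members but Egr3 lie below 0, with Fosb at -3.25 and Fos at -2.02.

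Over all 8 groups the SD between replicates, on the log2 scale, was 0.83 for Fosb and 0.54 for Fos, at percentile 94.0 and 83.3 of all genes tested. Without KO day 2 these were 0.20 and 0.19, at percentile 48.0 and 46.5. Jun went from 0.34 to 0.096, percentile 10.1. Egr3 had 0.22 with and without. Across the 8 groups, the replicate differences of pairs of members had a median Pearson correlation of 0.787, and 22 of 45 pairs were over 0.8. Without KO day 2 the median over 7 groups was 0.158 and 0 pairs were over 0.8. These correlations share their libraries and are a description.

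Lists of other rapid-response, heat shock and glucocorticoid-responsive genes were set beside the members in the same pair of libraries. The median of all genes there was 0.033 on the log2 scale. Of 28 tested genes from a list of other rapid-response genes, 23 were lower in the library labelled KO_D2 replicate 1, 11 of them by 2-fold or more, with a median of -0.69 on the log2 scale. Ier3 (0.845 against 2.86 FPKM), Atf3 (1.80 against 3.95), Klf6 (9.30 against 18.2) and Ppp1r15a (9.12 against 21.0) were among them. Jund (34.2 against 30.7), Btg2 (48.8 against 40.0) and Mcl1 (87.8 against 82.2) were not. All 16 heat shock genes were lower, with a median of -0.67. Hspa1a had 6.08 against 63.7 FPKM and Hspa1b 13.5 against 111, which are near-identical copies whose fragments may not be separable. Of 10 glucocorticoid-responsive genes, 9 were lower, with a median of -0.49. That list also fell from day 0 to day 1, with medians of -1.20 in WT and -1.39 in KO.

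Markers of cell types also differed between these 2 libraries. All 9 T cell markers (median -1.09 on the log2 scale), 9 neutrophil markers (-1.43), 10 erythroid markers (-2.67), 7 platelet markers (-2.42) and 6 mast cell and basophil markers (-1.53) were lower in replicate 1. All 7 plasma cell markers were higher (0.84). The medians of B cell, natural killer cell, monocyte and red pulp macrophage markers lay between 0.044 and 0.11. Some lists also differed between the replicates of other groups. Over the other 7 groups the medians ran from -1.60 to 1.59 for erythroid and -0.88 to 1.06 for neutrophil markers. They ran from -0.62 to 0.53 for platelet, -0.36 to 0.24 for T cell and -0.30 to 0.36 for plasma cell markers. Summed levels were 32.6 and 58.0 FPKM for T cell markers, 316 and 761 for neutrophil markers and 26.5 and 160 for erythroid markers in the 2 libraries. No marker of these lists was at 0 in every library. The part of cell make-up, of handling and of the label in the members' difference was not tested.

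**Figure D4:**
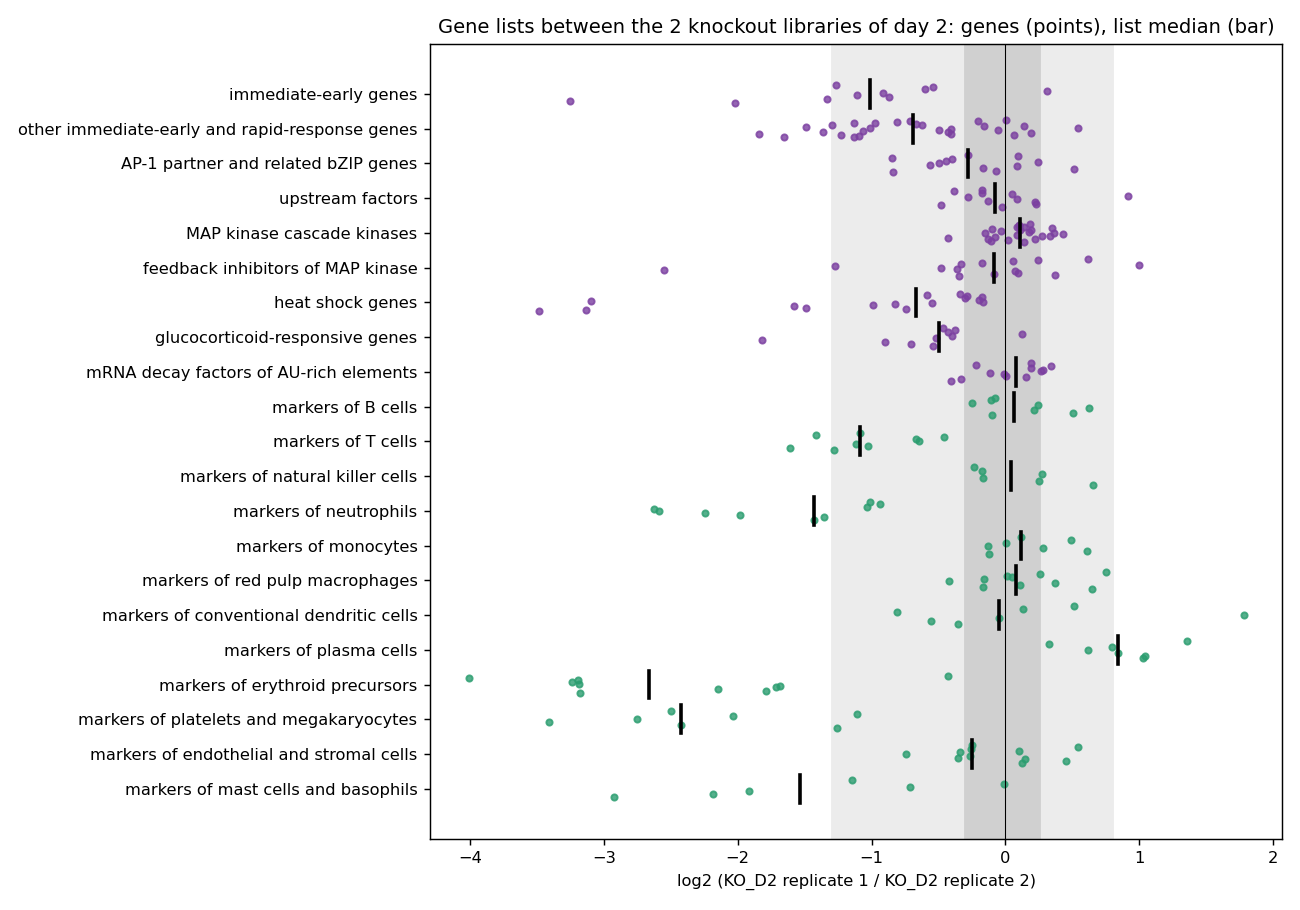
Log2 ratio of the library labelled KO_D2 replicate 1 to replicate 2 (x axis) for the genes of each list (points; purple, response and pathway lists; green, cell type markers), with list medians as black bars and the middle 50% and 90% of all genes tested as grey bands. The immediate-early median is at -1.01, heat shock at -0.67, T cell at -1.09, erythroid at -2.67 and plasma cell at 0.84.

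The genes whose level was most like the members' mean standardised level over the 16 libraries, among 10147 compared, included Lin37 (Pearson r = 0.81), Plk2, Snora52, Rnf19b, Atxn7l3, Klf6 and Rny1 (r = 0.74). None of these was among the top 8 without the library labelled KO_D2 replicate 1. After subtraction of each group's mean, the most alike were Mink1 (r = 0.98), Tesc, Tdrp, Ccnl2, Banp, Prkcq, Cd3e and Bcl11b (r = 0.96). The last 3 are T cell genes, and without both KO day 2 libraries Prkcq, Cd3e and Bcl11b were at 0.76, 0.57 and 0.50, and Mink1 and Ccnl2 at 0.89 and 0.90. These are descriptions over libraries that share groups.

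Other genes of the pathway were counted by list. With all libraries, no gene of the lists below was called between genotypes on any day or for the difference of changes. A change named in 1 genotype is therefore not shown to be particular to it. Of the 28 other rapid-response genes, 5 rose and 6 fell on WT day 1, 8 rose and 8 fell on day 2, and 1 rose and 13 fell on day 5. In KO the counts were 7 and 9, 6 and 11, and 2 and 12. Without the library labelled KO_D2 replicate 1, those of KO day 2 were 7 and 9, and the list's median there went from -0.43 to -0.07. The shares of all genes called in each direction, given above for the members (21.9% higher and 22.7% lower on WT day 1), are the background of these counts too. Gadd45b, a stress sensor, rose on day 1 by 2.01 in WT and 2.37 in KO on the log2 scale (adjusted p = 2.71e-07 and 4.81e-08) and stayed 2.07 and 2.21 above day 0 at day 2 (2.28 in KO without the library labelled KO_D2 replicate 1). Socs3, a feedback inhibitor of cytokine signalling, rose by 2.04 and 2.07 at day 1 (adjusted p = 0.000347 and 0.000321). Klf2, a quiescence factor of lymphocytes, fell on day 1 to -1.04 and -1.37 (adjusted p = 1.06e-05 and 4.65e-07). Ier5 fell on day 2 to -1.16 in WT and -1.59 in KO (-1.41 without that library). Klf10 rose on day 5 by 0.77 in WT and 0.72 in KO, while Jund fell on WT day 5 to -1.41 (adjusted p = 4.76e-05). The list's median on day 5 was -0.46 in WT and -0.49 in KO, beside -0.012 and -0.031 for all genes. Without the library labelled KO_D2 replicate 1, WT day 5 had 4 higher and 15 lower.

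Among 13 AP-1 partner and related genes, Batf, which pairs with JUN proteins in lymphocytes, rose in WT on days 1 and 2 by 1.74 and 1.59 (adjusted p = 0.000118 and 0.000203) and in KO by 2.20 and 1.53 (1.89 without the library labelled KO_D2 replicate 1). Bach2, a repressor that keeps lymphocytes resting, fell in WT on all 3 days (-1.37, -0.64 and -0.60). Nfe2, an erythroid and megakaryocyte factor, rose on day 5 by 2.49 in WT and 3.09 in KO, the day of the high erythroid marker sum. In all, 2 rose and 3 fell on WT day 1, 1 and 4 at day 2, and 3 and 1 at day 5. In KO the counts were 2 and 1, 2 and 4 (2 and 2 without that library), and 4 and 0.

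Of 12 upstream factors, 0, 0 and 1 rose and 8, 5 and 6 fell in WT on days 1, 2 and 5, and 1, 1 and 1 rose and 4, 3 and 1 fell in KO. Mrtfa, a coactivator of serum response factor, fell to -1.09, -0.86 and -0.74 in WT on days 1, 2 and 5. In KO it was at -0.69 on day 2 with all libraries. Creb1 fell in KO to -0.76, -0.95 and -0.83 on days 1, 2 and 5 (adjusted p = 5.71e-05, 3.23e-06 and 1.69e-05), with -0.81 at day 2 without the library labelled KO_D2 replicate 1. Of 24 MAP kinase cascade kinases, 1, 1 and 4 rose and 7, 10 and 6 fell in WT, and 2, 2 and 4 rose and 6, 11 and 7 fell in KO (0 and 9 at KO day 2 without that library). Rps6ka3 and Map2k6 were at -1.44 and -1.51 at WT day 2. Of 15 feedback inhibitors, 3, 2 and 5 rose and 3, 5 and 3 fell in WT, and 4, 3 and 5 rose and 4, 5 and 3 fell in KO. Dusp4 rose on WT days 1 and 2 by 1.63 and 2.54, and on KO day 1 by 2.01. Dusp2, a phosphatase of activated lymphocytes, fell in WT to -1.28, -1.82 and -1.79 on days 1, 2 and 5 (adjusted p = 1.59e-06, 1.80e-08 and 3.15e-08). In KO it fell to -1.56 and -1.85 on days 1 and 5. Nab2, a corepressor of EGR proteins, fell on day 5 in WT and KO (-1.27 and -1.03). Of 12 factors that act on AU-rich mRNAs, such as that of Fos, 3, 1 and 2 rose and 5, 5 and 5 fell in WT, and 2, 2 and 2 rose and 5, 6 and 6 fell in KO. Zfp36l2 fell on day 1 to -2.24 in WT and -2.14 in KO, and Khsrp rose on WT day 2 by 0.79 and on KO day 1 by 0.89.

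Heat shock and glucocorticoid-responsive genes were counted in the same way. The summed level of the 16 heat shock genes in WT was 1335 to 1441 FPKM on day 0, 2341 to 2568 at day 1, 1485 to 1945 at day 2 and 877 to 1159 at day 5. These sums are without TMM and weigh abundant genes most. The list's median log2 change on day 1 was -0.28 in WT and -0.65 in KO, beside -0.07 and -0.04 for all genes. Of these genes, 5 rose and 3 fell on WT day 1, 4 and 2 at day 2, and 1 and 9 at day 5. In KO the counts were 4 and 5, 4 and 3, and 1 and 8. The chaperonin genes Hspe1 and Hspd1 rose on WT day 1 by 1.43 and 1.38 (adjusted p = 6.49e-06 and 3.00e-05), and on KO day 1 by 1.11 and 1.01. Bag3 and Dnajb4 fell on WT day 1 to -0.84 and -0.68 (adjusted p = 0.0100 and 0.0272). Dnajb1 and Hsph1 fell on KO day 1 to -1.67 and -1.54 (adjusted p = 0.0114 and 0.0144). Hspa1b fell on day 5 to -4.36 in WT and -3.05 in KO (adjusted p = 0.0135 and 0.0411). Of 10 glucocorticoid-responsive genes, 1 rose in WT on each treated day, and 8, 6 and 6 fell on days 1, 2 and 5. In KO 1, 1 and 0 rose and 8, 8 and 6 fell. Tsc22d3, which encodes the glucocorticoid-induced leucine zipper, fell in KO to -2.42, -2.24 and -2.29 on days 1, 2 and 5 (adjusted p = 1.24e-08, 1.08e-08 and 9.04e-09), with -1.99 at day 2 without the library labelled KO_D2 replicate 1. Cdkn1a rose on WT days 1 and 2 by 1.55 and 1.91, and on KO day 1 by 1.84.

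The tables list further transcripts for 7 of the members, and a fragment was counted in every transcript it overlaps. Both described here keep an intron and were chosen after their values were seen. A single-exon Fosb transcript had 1.41 times the FPKM of the spliced transcript on WT day 0, 1.73 times on KO day 0 and 1.05 times on WT day 2. On KO day 2 the ratio was 1.72 in the library labelled replicate 1 and 1.142 in replicate 2, so the library with little Fosb had a ratio like that of KO day 0. An intron-keeping Nr4a1 transcript went from 0.61 of the spliced transcript on WT day 0 to 0.34 at WT day 5, and from 0.52 to 0.33 in KO. These ratios have no test, and ribosomal depletion keeps unspliced RNA.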

How the data were processed

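The authors deposited, for each library, a table of 142604 transcripts with fragment counts, FPM and FPKM; per the file headers the columns hold the fragment count, its FPM (scaled to the library total) and FPKM (scaled also to transcript length). The submitters' processing notes name bcl2fastq 2.17.1.14, Trimmomatic, HISAT2, TopHat and the mm10 build; the program that counted fragments, its annotation and its use of strand were stated in none of the sources used here, so a gene and an antisense partner may share fragments. Of these transcripts 99.1% were found in GENCODE M21. The deposited counts of 1 transcript per symbol were used, the protein-coding one with the highest mean count, or any type where none was coding. The summed counts were 1.48 to 2.12 times the library total, because a fragment is counted in each isoform, so the library total (count over FPM) was the library size.

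Genes were filtered with filterByExpr, scaled by TMM and tested with edgeR 4.0.16 (R 4.3.3; glmQLFit robust, glmQLFTest, two-sided) in a model of 8 groups with 8 residual degrees of freedom, 14 comparisons and Benjamini-Hochberg adjustment over 18745 genes at 0.05. The biological coefficient of variation was 13.1%. Fold changes are log2, and CPM were put on a log2 scale with a prior count of 0.5; deposited FPKM were tested with limma 3.58.1 on log2(FPKM + 0.1) and log2(FPKM + 1). DESeq2 1.42.0 was another alternative. The script was tested on simulated data. TMM factors of the WT day 1 libraries were 1.20 and 1.19, so on the FPKM scale the median gene was 0.29 higher on that day than on day 0, against -0.07 after TMM.

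The members and gene lists were chosen with earlier results of these data known. The text names the 10 members in every comparison, from each other list called genes among the 2 largest rises and 2 largest falls, genes from the 8 most like the members (1 is not reported here), and, for KO day 2, list genes picked after their values were seen. Replicates are pools of separate mice per the series design.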

Additional observations from a re-analysis of the deposited data

How the results depend on the processing

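With 2 libraries a group, precision rests on 8 residual degrees of freedom shared by all groups, so 1 unequal pair widens the SE of a gene everywhere. No change of a member called with all libraries reversed its direction; Fos and Fosb on KO day 2, not called there, were called higher without replicate 1 and lower without replicate 2. Of the members' called changes from day 0, those of Egr3 (6), Nr4a1 on day 5 (2), Jun on WT day 2 and Ier2 on KO day 2 passed in 26 of 26 alternatives; the others were lost in some. The replicate block (replicate number as a term) changed the members' counts to 5 on WT and KO day 2 and changed no other count of members. Replicate numbers did not pair the libraries: over 28 pairs of groups the correlation of their deviations ran from -0.15 to 0.16, and 3 were over 0.1. Counting the sum of isoforms or any transcript type left 1 member on WT day 1. Fitting only the groups compared gave 5 members on WT day 1, 7 on WT day 5, 5 on KO day 1, 3 on KO day 2 and 2 for KO against WT on day 1. With no filter 1 member was called for KO against WT on day 2 and 1 for the mean over days.

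Leaving out each library in turn gave 1 to 5, 2 to 8 and 2 to 7 members on WT days 1, 2 and 5, and 1 to 5, 2 to 8 and 2 to 6 in KO; on WT day 2 the 2 and 3 came from leaving out a WT day 0 or day 2 library, on KO day 2 from a KO day 0 library, and on KO day 5 from KO_D0 replicate 1 or a KO day 5 library. The highest count on each day of WT, and on KO days 1, 2 and 5, came from leaving out a KO day 2 library. For KO against WT it gave 0 to 2 members on day 1, 0 to 6 on day 2, 0 to 4 for the day 2 difference of changes and 0 to 5 for the mean over days; all values above 0 came from leaving out a KO day 2 library. Over all genes, the same exercise gave 4626 to 7832 calls on WT day 5, 0 to 55, 4 to 218, 0 to 40 and 0 to 12 for KO against WT on days 0, 1, 2 and 5, 0 to 376, 0 to 14 and 0 to 44 for the differences of changes on days 1, 2 and 5, and 2 to 29 for the mean over days.

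Calls over all genes for KO against WT were few and moved with the setting; the cause was not tested. With no filter there were 63, 432, 63 and 208 on days 0, 1, 2 and 5, then 478, 19 and 156 for the differences of changes and 97 for the mean. DESeq2 gave 11, 199, 5 and 72, then 214, 3 and 37, and 13. The replicate block gave 0, 86, 1 and 34, then 10 and 6 for days 1 and 5, and 11. A filter at FPKM of 2 gave 0 and 11 on days 0 and 1 and 1 for the difference on day 1. The sum of isoforms gave 0 and 12, then 3, and 1 for the mean. Fitting only the groups compared gave 331 and 6 on days 1 and 5, then 18 and 1. By limma on log2(FPKM + 0.1) there were 0, 3 and 0 on days 0, 1 and 5, 0 for the difference on day 1 and 2 for the mean, and on log2(FPKM + 1) 0, 6 and 0, then 3 and 1, and 2. Leaving out the library labelled KO_D2 replicate 1 from the counts of the other gene lists was chosen after seeing the data.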
